A study of Drosophila melanogaster with 9 samples.

Results

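The loci described here flank Atg6 on chromosome arm 3R of Drosophila melanogaster. They are the 307 loci of the deposited expression table, of 15809 in all, whose start lies between 23049180 and 25050782 on 3R (build dm6), which is 1 Mb on each side of Atg6. Atg6 itself and Hsp68 were left out by the rule, and the rest were taken by position alone. The window was set with earlier results of these data known, and its rule names CG5991, CG5986 and CG13822. RNA came from whole larvae at the wandering stage of the third instar, raised at 25C on standard food. All larvae had the w118 background. The groups were Atg6-/- (homozygotes, titled Atg6D/Atg6D), Atg6-/+ (heterozygotes, titled Atg6D/+) and Atg6 wild type, with 3 libraries each and 9 in all. The labels give neither the kind of lesion in the mutant allele nor whether the libraries came from separate cultures or animals, so p-values measure only the spread between these libraries. Homozygotes carry the region around the lesion on both copies of 3R and heterozygotes carry it on a single copy. The mutation and any other difference carried by the same stretch of chromosome therefore cannot be told apart by genotype.

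Atg6 encodes the Beclin 1 homologue of flies. It is part of the class III phosphatidylinositol 3-kinase complex that starts autophagosomes and also acts in endocytic traffic. Genes that lie beside a mutated gene are inherited with it, and neighbours can share promoter sequence or overlap in their transcripts. Sorting changes by their distance from the gene is therefore a usual way to set apart what is found near a lesion from what is found across the genome.

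Atg6 checked the labels. It had 0.0270, 0 and 0.0563 FPKM (fragments per kilobase of transcript, relative to all fragments of the library) in the homozygotes, 7.58, 7.98 and 8.89 FPKM in the heterozygotes, and 16.1, 14.3 and 17.0 FPKM in the wild types. The 3 genotypes did not overlap and stood in the order of their labels.

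Of the 307 loci, 133 lay at lower coordinates than Atg6, 173 at higher coordinates, and 1, CG5991, shared its deposited interval with Atg6. More than 1 gene name was carried by 23 of them, so that the values of those genes cannot be separated. FPKM was at least 1 in at least 3 libraries at 241 loci, which were tested, and 66 were not tested. At no tested locus was this level reached in libraries of a single genotype alone. CG10232 and CG17111, both higher in homozygotes, were among loci that met the filter only with the homozygotes counted. Of the untested loci, 16 were listed at 0 in all libraries and the others had a mean of at most 1.18 FPKM. Tested means ran from 0.646 FPKM to 1400.0 FPKM at RpS3, with a median of 14.3 FPKM. At the edges of the window, Gr94a was the first locus inside on the low side, at 0.176, 0.0664 and 0.135 FPKM in homozygotes, heterozygotes and wild types, and CG17121 lay just outside, at 26.6, 19.0 and 20.7 FPKM. CG11791 was the last locus inside on the high side, at 60.4, 51.1 and 47.9 FPKM, and CG31109 lay just outside, at 11.2, 12.9 and 12.4 FPKM.

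FPKM carries no absolute depth, so the depth of the libraries is unknown; the summed FPKM of a library ran from 754677 to 1099063. Markers of fat body, salivary gland, muscle and gut were present in every library, except that Lsp1beta was listed at 0 in some. Their summed FPKM differed between genotypes. Salivary gland markers summed to 3964 to 26672 in homozygotes, 50502 to 57673 in heterozygotes and 50646 to 73151 in wild types, so that homozygotes lay below all other libraries; 1 of the 4 markers fell against wild type. A list of 3 cuticle genes matched 2 loci, of which 1 was tested and was not called in any comparison. Cpr47Ea was listed at 0 in at least 1 library. The cuticle sums were 5262 to 25302 in homozygotes, 36560 to 43708 in heterozygotes and 25803 to 47859 in wild types, again lowest in homozygotes. The fat body sums were 11780 to 27842, 28186 to 40343 and 22824 to 39455 in homozygotes, heterozygotes and wild types, and 1 of the 4 markers fell in homozygotes against wild type. For muscle the sums overlapped, at 5785 to 17952, 8395 to 13445 and 3991 to 11288, and likewise for gut, at 11600 to 23030, 20059 to 31032 and 10082 to 20259. The part of these markers in the homozygote changes was not tested. Since RNA came from whole larvae, fewer cells of a type and less RNA per cell cannot be told apart in any value here.

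In Atg6-/- larvae against wild type, the loci around Atg6 changed about as often as loci elsewhere. The test was limma on log2(FPKM + 1), with Benjamini-Hochberg adjustment over the 10887 tested loci of the genome and a threshold of 0.05; fold changes are on this log2 scale. Of the 241 loci, 55 changed, which is 22.8%, against 22.0% of all tested loci. Of these, 32 were higher in homozygotes, or 13.3%, against 12.3% of all loci, and 23 were lower, or 9.54%, against 9.67%. Changes of at least 2-fold were seen upward at 11 loci, or 4.56%, against 3.65%, and downward at 13, or 5.39%, against 6.39%. At an unadjusted p under 0.05 there were 100 loci, or 41.5%, against 41.1% of all. The median log2 fold change was 0.02 around Atg6 and 0.01 over all loci, and the median size of the change was 0.31 and 0.32. The count of 55 was 25 without wild type 1, 23 without wild type 3, 31 without heterozygote 2, 32 without heterozygote 3 and 24 without homozygote 3. Over all tested loci the counts fell too, from 1343 higher and 1053 lower. They were 778 and 257 without wild type 1 and 583 and 143 without wild type 3. Without heterozygote 2 they were 896 and 353, without heterozygote 3 930 and 402, and without homozygote 3 719 and 188.

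With distance, the share of changed loci did not fall off steadily. It was 4 of 12 loci within 20 kb (33.3%), 3 of 21 from 20 to 100 kb (14.3%), 8 of 47 from 100 to 250 kb (17.0%), 14 of 54 from 250 to 500 kb (25.9%) and 26 of 107 from 500 to 1000 kb (24.3%). Farther out it was 49 of 221 from 1 to 2 Mb (22.2%), 107 of 451 from 2 to 5 Mb (23.7%), 358 of 1769 on the rest of 3R (20.2%) and 1826 of 8203 on the other chromosomes (22.3%). The bins closest to Atg6 hold few loci, so a single call moves the share within 20 kb by several percentage points. Distance here is between deposited intervals, which can span several genes; by annotated genes, 4 of 10 loci within 20 kb changed. At lower coordinates 29 of 107 tested loci changed, 17 of them upward, and at higher coordinates 25 of 133, 14 of them upward. Over all tested loci 2396 of 10887 changed (22.0%), 1343 of them upward (12.3%). The difference between the 2 sides was not tested.

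**Figure D1:**
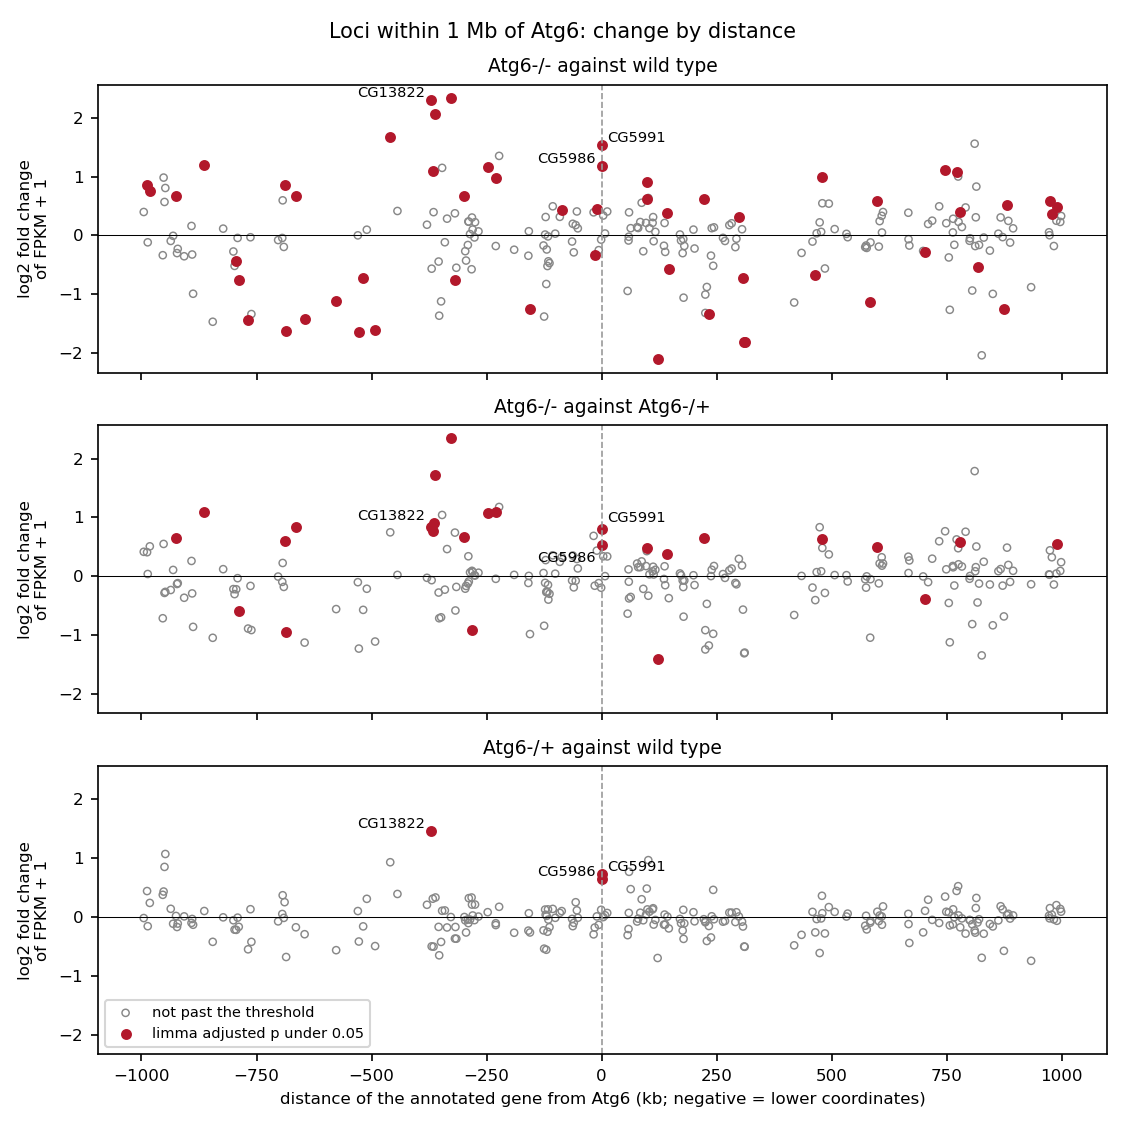
Log2 fold change of FPKM + 1 (vertical axis) at each tested locus against its distance from Atg6 in kb (horizontal axis). The panels show Atg6-/- against wild type, Atg6-/- against Atg6-/+ and Atg6-/+ against wild type. Distance is that of the annotated gene, or of the deposited interval where no position was annotated (Rootletin). Filled points have a limma adjusted p under 0.05. Changed loci are spread over the whole window in the upper panels, while the lowest panel has 3 filled points.

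**Figure D2:**
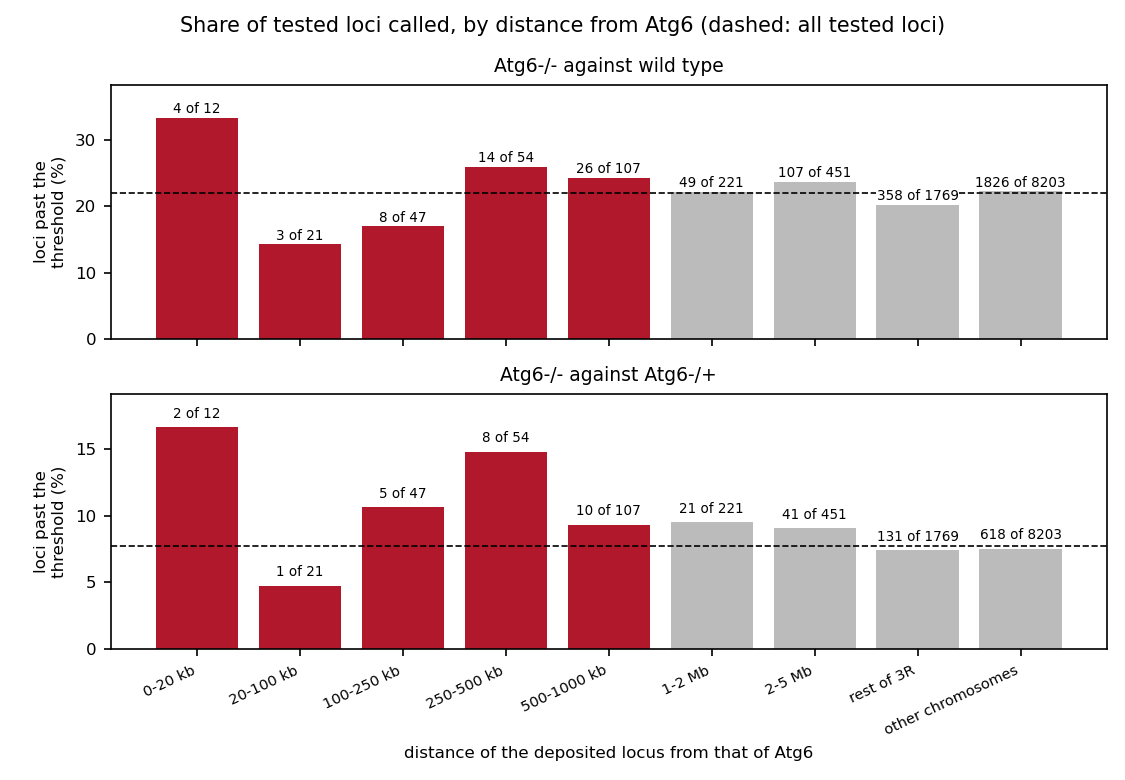
Share of tested loci past the threshold (percent, vertical axis) by distance of the deposited locus from Atg6 (horizontal axis), for Atg6-/- against wild type and Atg6-/- against Atg6-/+; the dashed line is the share over all tested loci, and the labels give the counts. In the upper panel the bins of the window lie on both sides of the dashed line at 22.0%.

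The heterozygotes gave a different picture. Against wild type, 3 of the 241 loci changed, CG5991, CG5986 and CG13822, which is 1.24%, against 0.211% of all tested loci. All 3 were higher in heterozygotes, against 0.147% of all loci higher. The genome held 23 such loci in all, so that 13.0% of them lay in a window with 2.21% of the tested loci; of the others, 11 were on X, 2 elsewhere on 3R, 2 on 3L, 2 on 2R, 1 on 2L and 1 on Y, and 1 was Atg6. The 3 loci were also the only members that changed in all 3 comparisons of genotypes, which is 1.24%, against 0.11% of all tested loci. The comparisons share libraries, and the loci were known from earlier results of these data. Their recurrence and their share of the heterozygote calls are therefore descriptions. The count of 3 was 1 when any wild type, any heterozygote or homozygote 3 was left out, and the count over the genome was then 9 to 18 in place of 23. Without regard to multiple tests, 16 loci had p under 0.05 in heterozygotes, or 6.64%, against 5.71% of all loci. The median size of the change was 0.13 around Atg6 and 0.14 over all loci.

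CG5991 and CG5986 are the genes on either side of Atg6. In the Ensembl annotation of the same build, Atg6 runs from 24049180 to 24050782 on the minus strand. CG5991, now named Pisd, encodes a phosphatidylserine decarboxylase, the enzyme that makes phosphatidylethanolamine in mitochondria, and runs from 24050783 to 24053592 on the plus strand. The 5′ ends of Atg6 and CG5991 thus abut with 0 bases between them, and the genes are read away from each other. CG5986, for which no role is given here, runs from 24047790 to 24049168 on the plus strand and ends 11 bases from the 3′ end of Atg6, so that both genes are read toward each other.

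CG5986 had 83.5, 86.7 and 81.0 FPKM in the homozygotes, 57.5, 58.3 and 56.5 FPKM in the heterozygotes, and 34.9, 36.4 and 37.8 FPKM in the wild types. Every homozygote was above every heterozygote, and every heterozygote above every wild type. The log2 fold change was 1.18 (SE 0.07, limma adjusted p = 7.54e-05) in homozygotes and 0.65 (SE 0.07, adjusted p = 0.0177) in heterozygotes against wild type. Homozygotes were also higher than heterozygotes, by 0.54 (SE 0.07, adjusted p = 0.00372). In FPKM the heterozygote mean stood 21.1 above wild type and the homozygote mean 26.3 above the heterozygote, so that heterozygotes had 44.5% of the homozygote difference. On the log2 scale the heterozygote was 0.05 from the middle of the other genotypes (adjusted p = 0.945).

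CG5991 had 40.5, 34.6 and 35.1 FPKM in the homozygotes, 20.9, 19.7 and 21.5 FPKM in the heterozygotes, and 11.5, 12.6 and 11.95 FPKM in the wild types. Here too the genotypes did not overlap and followed the number of mutant copies. The log2 fold change was 1.53 (SE 0.08, limma adjusted p = 6.29e-05) in homozygotes and 0.74 (SE 0.08, adjusted p = 0.0179) in heterozygotes against wild type, and 0.80 (SE 0.08, adjusted p = 0.00141) in homozygotes against heterozygotes. The heterozygote mean was 8.68 FPKM above wild type, which is 35.1% of the homozygote difference, and the homozygote mean 16.1 FPKM above the heterozygote. In both genes the call in heterozygotes was lost when any wild type, any heterozygote or homozygote 3 was left out, with adjusted p up to 0.147 for CG5991 and 0.140 for CG5986, while the calls in homozygotes held without each library. Under quantile normalization CG5986 passed in homozygotes against wild type but not in heterozygotes (limma adjusted p = 0.154) or between homozygotes and heterozygotes (adjusted p = 0.0861).

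The other loci whose deposited intervals come within 20 kb showed smaller differences. Rox8, an RNA-binding protein related to human TIA1, overlaps CG5986 on the opposite strand. It had 53.8, 57.8 and 51.9 FPKM in homozygotes, 68.4, 62.1 and 57.3 FPKM in heterozygotes, and 56.3, 56.9 and 58.4 FPKM in wild types. The genotypes overlapped, and the log2 fold change in homozygotes was -0.07 (limma adjusted p = 0.575). The libraries were strand-specific per the labels, but whether counting used the strand is not stated, so reads in the overlap of CG5986 and Rox8 may be split in error; the same limit applies to the ends of Atg6 and its neighbours.

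Miro, a GTPase that ties mitochondria to microtubule motors, had 36.0, 47.0 and 32.8 FPKM in homozygotes, 28.0, 27.4 and 28.4 FPKM in heterozygotes, and 29.8, 26.8 and 26.7 FPKM in wild types. Its homozygotes lay above all other libraries, by 0.45 against wild type (SE 0.13, limma adjusted p = 0.0449). Ime4 (Mettl3), the catalytic subunit of the N6-methyladenosine writer for RNA, had 5.95, 6.21 and 6.21 FPKM in homozygotes, 6.31, 7.77 and 6.87 FPKM in heterozygotes, and 8.87, 7.09 and 8.15 FPKM in wild types. It was lower in homozygotes by a log2 fold change of -0.34 (SE 0.10, limma adjusted p = 0.0495). Both calls sat at the threshold and were lost in most of the fits that left out a library, with adjusted p up to 0.119 for Miro and 0.135 for Ime4. The remaining loci with an interval within 20 kb did not pass the test: spas at -0.25, SMC1 at 0.03, KrT95D at 0.39, CG6000/CR44097 at 0.34, CG33108/LSm3 at 0.12, 4EHP/Syx1A at 0.41 and CG10694 at -0.94 in homozygotes against wild type, with limma adjusted p from 0.0541 to 0.841. The annotated genes of CG33108/LSm3 and CG10694 lie farther off, at 51.6 and 56.6 kb. SMC1 and CG33108/LSm3 changed sign under quantile normalization.

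**Figure D3:**
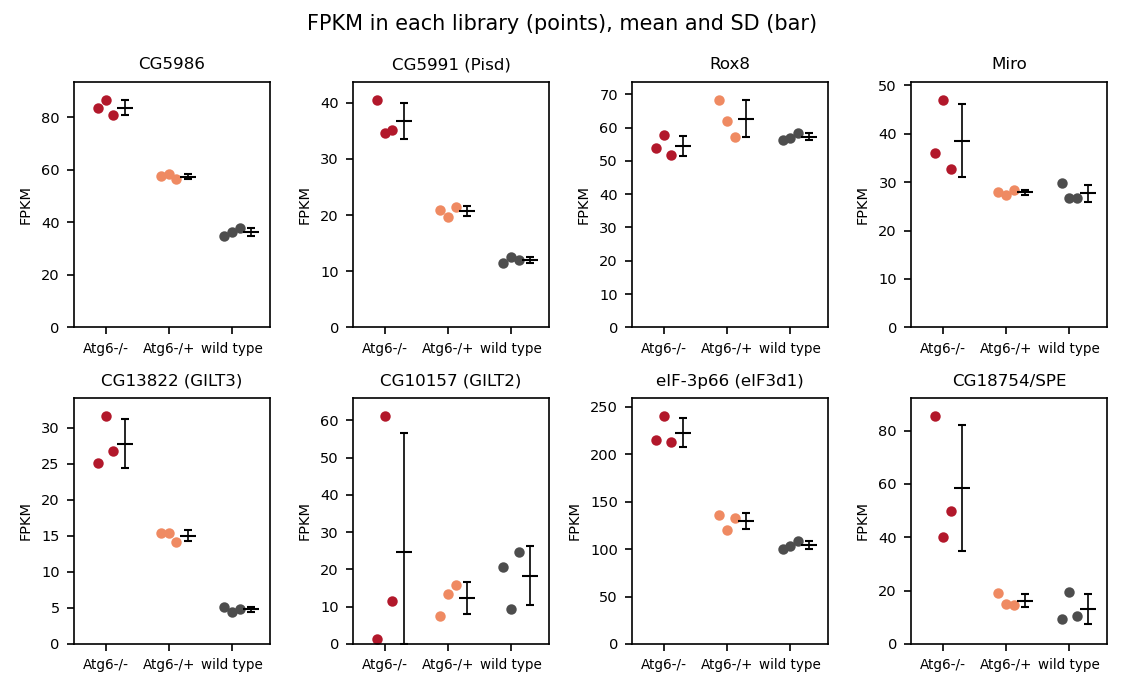
FPKM (vertical axis, from 0) in each library (points) with mean and SD (bar; the lower end is drawn at 0 where it would pass below) for 8 loci, by genotype. CG5986, CG5991 (Pisd), CG13822 (GILT3) and eIF-3p66 (eIF3d1) stand in genotype order without overlap, while Rox8 and CG10157 (GILT2) overlap between genotypes.

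CG13822 lies 371 kb from Atg6, at 23677358 to 23678421 on the plus strand, and had the largest change of the 3. It is now named GILT3, for the family of gamma-interferon-inducible lysosomal thiol reductases. It had 25.1, 31.6 and 26.7 FPKM in the homozygotes, 15.5, 15.4 and 14.1 FPKM in the heterozygotes, and 5.16, 4.49 and 4.78 FPKM in the wild types. The genotypes did not overlap and again followed the number of mutant copies. The log2 fold change was 2.31 (SE 0.10, limma adjusted p = 3.54e-05) in homozygotes and 1.46 (SE 0.10, adjusted p = 0.00133) in heterozygotes against wild type, and 0.84 (SE 0.10, adjusted p = 0.00244) in homozygotes against heterozygotes. The first mutant copy went with 10.2 FPKM more and the second with 12.8 FPKM more, so that heterozygotes had 44.3% of the homozygote difference. Its call in heterozygotes held without each library, with adjusted p from 0.00166 to 0.0174, and was the 1 call left in the window in every fit without a wild type, a heterozygote or homozygote 3.

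The genes next to CG13822 showed several patterns, and none of those below was called in heterozygotes against wild type. Like CG13822, eIF-3p66, CG16710 and CG18754/SPE were called as higher in homozygotes than in heterozygotes. CG10157 (GILT2), of the same family and the next gene on the same strand, had 1.32, 61.1 and 11.5 FPKM in homozygotes, 7.48, 13.4 and 15.9 FPKM in heterozygotes, and 20.7, 9.42 and 24.7 FPKM in wild types. Its homozygotes spanned the range of all other libraries, and it did not pass the test (log2 fold change -0.56, limma adjusted p = 0.71). With this spread its values show neither a shift nor the absence of one. CG31145, on the other side, had means of 14.2, 14.2 and 12.3 FPKM in homozygotes, heterozygotes and wild types. Its log2 fold change in homozygotes against wild type was 0.18 (limma adjusted p = 0.535). The next gene after CG10157 is eIF-3p66 (eIF3d1), a subunit of the translation initiation factor eIF3, at 367 kb. It had 215, 240.2 and 213 FPKM in homozygotes, 136, 120.4 and 132 FPKM in heterozygotes, and 99.97, 104 and 109 FPKM in wild types. Its genotypes did not overlap, but the heterozygotes had 21.5% of the homozygote difference in FPKM. The log2 fold change in homozygotes was 1.09 (SE 0.09, limma adjusted p = 0.000401) against wild type and 0.78 (SE 0.09, adjusted p = 0.00244) against heterozygotes, and in heterozygotes it was 0.31 (adjusted p = 0.54). Under quantile normalization the difference from heterozygotes did not pass (limma adjusted p = 0.0678).

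CG16710 and CG18754/SPE follow. CG16710 had 2.43, 1.94 and 1.64 FPKM in homozygotes, 0.365, 0.501 and 0.995 FPKM in heterozygotes, and 1.21, 1.26 and 1.32 FPKM in wild types, so that the heterozygotes were the lowest. It was called only in homozygotes against heterozygotes, by 0.90 (SE 0.18, limma adjusted p = 0.0251). CG18754/SPE is a merged locus that includes SPE, the serine protease that activates Spätzle, the ligand of Toll. It had 85.4, 40.2 and 49.9 FPKM in homozygotes, 19.1, 14.9 and 14.6 FPKM in heterozygotes, and 9.43, 19.7 and 10.6 FPKM in wild types. Homozygotes lay above all other libraries, by 2.06 against wild type (SE 0.33, limma adjusted p = 0.00662) and 1.73 against heterozygotes (SE 0.33, adjusted p = 0.0206), while heterozygotes and wild types overlapped.

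Libraries in strict genotype order were about as common around Atg6 as elsewhere. At 10 loci the 9 libraries followed the number of mutant copies without overlap, or 4.15%, against 4.08% of all tested loci. Of these, 8 were highest in homozygotes, or 3.32%, against 2.87%, and 2 were lowest in homozygotes, or 0.83%, against 1.20%. The count was 21 without wild type 2, 19 without heterozygote 1, 15 without heterozygote 2 and 19 without homozygote 2. Over all tested loci the counts rose too, from 313 upward and 131 downward. They were 599 and 360 without wild type 2 and 411 and 206 without heterozygote 1. Without heterozygote 2 they were 457 and 185, and without homozygote 2 428 and 272. The 10 loci around Atg6 were CG5991, CG5986, CG13822, eIF-3p66, CG10182, CG13623, RpS3 and niki upward and CG4408 and CG4374 downward. All 10 also passed the test in homozygotes against wild type, which leaves the share at 4.15%, against 3.79% of all tested loci that were both in order and past the test.

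CG10182, 459 kb away and with no role given here, had 274, 171 and 180.2 FPKM in homozygotes, 140.2, 124 and 101 FPKM in heterozygotes, and 73.5, 56.5 and 59.9 FPKM in wild types. The steps were visible in every library, with 1.68 in homozygotes (SE 0.21, limma adjusted p = 0.00223), but the heterozygote difference of 0.93 did not pass (adjusted p = 0.321). RpS3, a protein of the small ribosomal subunit, had 2102, 1824 and 1779 FPKM in homozygotes, 1272, 1213 and 1262 FPKM in heterozygotes, and 994, 1141 and 1013 FPKM in wild types. It was higher in homozygotes by 0.86 (SE 0.12, limma adjusted p = 0.00418), a call that was lost under quantile normalization (adjusted p = 0.0979); there the heterozygote difference of 0.25 became -0.01. CG13623 rose by 1.00 and niki, a NimA-like kinase, by 1.07 in homozygotes (limma adjusted p = 0.00416 and 0.0128). CG4408 had 9.89, 17.2 and 11.2 FPKM in homozygotes, 25.1, 22.7 and 27.0 FPKM in heterozygotes, and 36.8, 37.9 and 47.2 FPKM in wild types. Homozygotes were the lowest and wild types the highest, with a log2 fold change of -1.63 (SE 0.20, limma adjusted p = 0.00188). CG4374 was at 0.649, 1.41 and 2.57 FPKM on average in homozygotes, heterozygotes and wild types and had -1.12 (limma adjusted p = 0.00595), lost under quantile normalization (adjusted p = 0.0862).

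A further group of calls set homozygotes against both other genotypes. In homozygotes against heterozygotes, 26 loci changed, or 10.8%, against 7.70% of all tested loci. Of these, 21 were higher in homozygotes, or 8.71%, against 6.27%, and 5 were lower, or 2.07%, against 1.42%. The count of 26 was 13, 10 and 14 without heterozygote 1, 2 and 3, and 14 without homozygote 3. Over all tested loci the counts fell too, from 683 higher and 155 lower. They were 371 and 59, 257 and 46, and 296 and 44 without heterozygote 1, 2 and 3. Without homozygote 3 they were 340 and 79. Of the 26, 24 had also changed against wild type, or 9.96% of the tested loci of the window, against 7.09% of all loci; the comparisons share the homozygote libraries. The calls of CG13822, CG5991, CG5986, eIF-3p66, CG10232, mbc, CenB1A, 5PtaseI and CG4393 were among those that held without each library, and those of CG18754/SPE, CG16710, Irk1, CG13606, CG4408, CG13827, asp and Lsd-1 did not. The other 2, CG16710 and Lsd-1, were 0.83% of the window, against 0.606% of all loci called in this comparison alone.

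CG10232 showed the form most sharply, though it met the filter only with its homozygotes counted. It had 12.1, 8.001 and 7.12 FPKM in homozygotes, 0.834, 1.02 and 0.985 FPKM in heterozygotes, and 0.936, 0.866 and 1.03 FPKM in wild types. Heterozygotes and wild types overlapped, and homozygotes were higher by 2.34 against either (SE 0.18, limma adjusted p = 0.000225 against wild type and 0.00035 against heterozygotes). mbc (myoblast city), a Rac activator used in myoblast fusion and cell movement, had 25.8, 24.4 and 21.4 FPKM in homozygotes, 11.1, 10.3 and 10.7 FPKM in heterozygotes, and 10.01, 10.6 and 9.61 FPKM in wild types. It was higher by 1.17 against wild type (SE 0.09, limma adjusted p = 0.000208). These were the 2 loci of the window whose heterozygotes lay off the middle of the other genotypes, by -1.17 at CG10232 (SE 0.15, limma adjusted p = 0.0171) and -0.50 at mbc (SE 0.07, adjusted p = 0.0254). That is 0.83% of the window, against 1.00% of all tested loci, and both are lower than the middle. Neither call from the middle held without each library: leaving out 1 library gave 0 to 3 such loci, with 0 without wild type 3 or any heterozygote and 1 without wild type 1, wild type 2 or homozygote 2. Over all tested loci such calls were 14 above and 95 below the middle. They fell to 3 and 10, 2 and 11, and 4 and 23 without heterozygote 1, 2 and 3.

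Irk1, an inwardly rectifying potassium channel, had 55.7, 39.1 and 43.5 FPKM in homozygotes, 27.0, 20.7 and 16.3 FPKM in heterozygotes, and 20.3, 21.5 and 16.7 FPKM in wild types, with 1.19 (SE 0.20, limma adjusted p = 0.00798). Among signalling and regulatory genes that rose by less, CenB1A, an Arf GTPase-activating protein, had 0.67, the stress kinases p38a and p38c had 0.61 and 0.91, ash2, a subunit of histone H3 lysine methyltransferase complexes, had 0.59 and the nuclear receptor Hr96 had 0.59. Their limma adjusted p ran from 0.00416 to 0.0441. Other rises were at 5PtaseI, an inositol polyphosphate phosphatase, with 0.48, the organic cation transporter Orct2 with 0.62, the clathrin adaptor AP-1sigma with 0.43 and the nonsense-mediated decay nuclease Smg6 with 0.36 (limma adjusted p from 0.00907 to 0.0348). A locus listed as eIF4G2, a translation initiation factor, rose by 0.98 (limma adjusted p = 0.0246). Its means were 5.39, 2.05 and 2.26 FPKM in homozygotes, heterozygotes and wild types. A second, merged locus, CG33111/eIF4G2, was far higher, at 46.4, 47.9 and 52.7 FPKM. It went the other way, by -0.18, and did not pass (limma adjusted p = 0.111). A rise of eIF4G2 as a whole is therefore not shown. The 8 blood cell markers summed to 997 to 1247 FPKM in homozygotes, 521 to 636 FPKM in heterozygotes and 360 to 801 FPKM in wild types, with 4 higher and 1 lower in homozygotes against wild type and none listed at 0; their part in these rises was not tested. Every homozygote lay above every wild type at 49 of the 241 tested loci, or 20.3%, against 19.5% of all tested loci. Of the 32 rises, 20 also passed against heterozygotes, while p38c, Hr96, AP-1sigma and Smg6 were among those that did not. This share, and the share below that held without each library, were not counted over the rises of the genome. Over both directions, 772 of the 2396 loci of the genome called against wild type also passed against heterozygotes. Without each library in turn, 19 of the 32 rises held, among them CG10232, mbc, Irk1, CenB1A, p38a, ash2, 5PtaseI and Orct2, while p38c, Hr96, AP-1sigma, Smg6 and eIF4G2 were each lost without wild type 1, without wild type 3 and without homozygote 3.

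**Figure D4:**
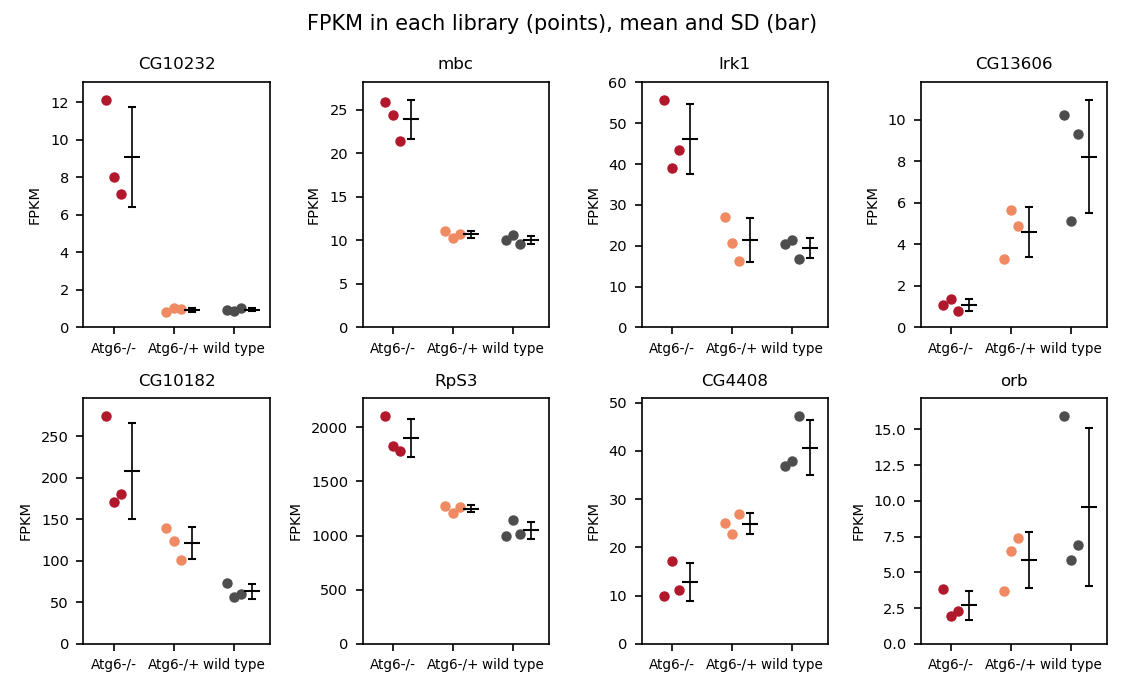
FPKM (vertical axis, from 0) in each library (points) with mean and SD (bar) at 8 loci farther from Atg6, by genotype. At CG10232, mbc and Irk1 heterozygotes overlap wild types and homozygotes stand above both, at CG10182, RpS3 and CG4408 the genotypes stand in order, and at orb wild type 1 lies far above the other wild types.

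Of the 23 loci that fell in homozygotes, 4 also passed against heterozygotes: CG13606, CG4408, CG13827 and asp. The same share over the falls of the genome was not counted. Among all tested loci called in homozygotes against heterozygotes, falls were fewer than rises too, at 155 against 683. CG13606 had 1.09, 1.39 and 0.789 FPKM in homozygotes, 3.29, 5.66 and 4.87 FPKM in heterozygotes, and 10.3, 5.12 and 9.33 FPKM in wild types. It lay below all other libraries in homozygotes, by -2.11 against wild type (SE 0.26, limma adjusted p = 0.00223) and -1.41 against heterozygotes (adjusted p = 0.0187). CG13827 (Pex11c), a peroxisome factor, averaged 11.1 ± 1.39, 17.1 ± 0.751 and 19.4 ± 2.75 FPKM in homozygotes, heterozygotes and wild types (SD, n = 3 each), with -0.76 (limma adjusted p = 0.00682). asp, a spindle pole protein, had -0.28 against wild type and -0.39 against heterozygotes (limma adjusted p = 0.046 and 0.0303). Lsd-1, the perilipin that coats lipid droplets, had 198, 255 and 282 FPKM in homozygotes, 480.4, 409 and 479 FPKM in heterozygotes, and 277, 392 and 435 FPKM in wild types. It fell against heterozygotes, by -0.91 (SE 0.20, limma adjusted p = 0.036), and its difference from wild type of -0.57 did not pass (adjusted p = 0.0724).

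At many of the other falls wild type 1 stood apart. orb, which encodes a germline RNA-binding protein, had 3.87, 1.92 and 2.28 FPKM in homozygotes, 3.68, 6.505 and 7.42 FPKM in heterozygotes, and 15.9, 5.87 and 6.95 FPKM in wild types. Wild type 1 stood far above the other wild types, and heterozygote 1 was among the homozygotes. The fold change was -1.44 (SE 0.38, limma adjusted p = 0.0385). Wild type 1 was likewise the highest library and heterozygote 1 the lowest heterozygote at CG5762 (-1.81), CG33339/CG33340 (-1.80), CG10177 (-1.64), CG10164 (-1.60), CG17380/CR44323 (-1.42), Trf4-2 (-1.26) and tbrd-1, a testis bromodomain protein (-1.24), with limma adjusted p from 0.0364 to 0.0475. At CG10177, CG10164 and CG17380/CR44323 heterozygote 1 lay above every homozygote, and at the others it did not. The calls at these 7 loci and at orb were each lost without wild type 1 and without wild type 3, and of all 23 falls 4 held without each library, CG13606, CG4408, CG13827 and CG4374. The share that held was not counted over the genome. There the 1053 falls were 257 without wild type 1, 143 without wild type 3 and 188 without homozygote 3. The 1343 rises of the genome were 778, 583 and 719 in the same fits, so that falls were lost more often than rises there too. Among the 23 falls of the window, wild type 1 was the highest wild type at 17, or 73.9%, against 73.0% of all 1053 falls of the genome, and at least double wild type 2 at 9, or 39.1%, against 49.6%, so that these shares are not particular to the window. The 15 testis markers were all found and none was listed at 0; 7 fell in homozygotes against wild type and 1 against heterozygotes. They summed to 110, 59.9 and 48.0 FPKM in homozygotes, 95.5, 192 and 209 FPKM in heterozygotes, and 414, 131 and 191 FPKM in wild types, so that wild type 1 was again the highest and heterozygote 1 the lowest of its group. One of these markers, fzo, the mitofusin of sperm development, lies in the window and had -1.47 (limma adjusted p = 0.053). The part of these markers in the falls was not tested.

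**Figure D5:**
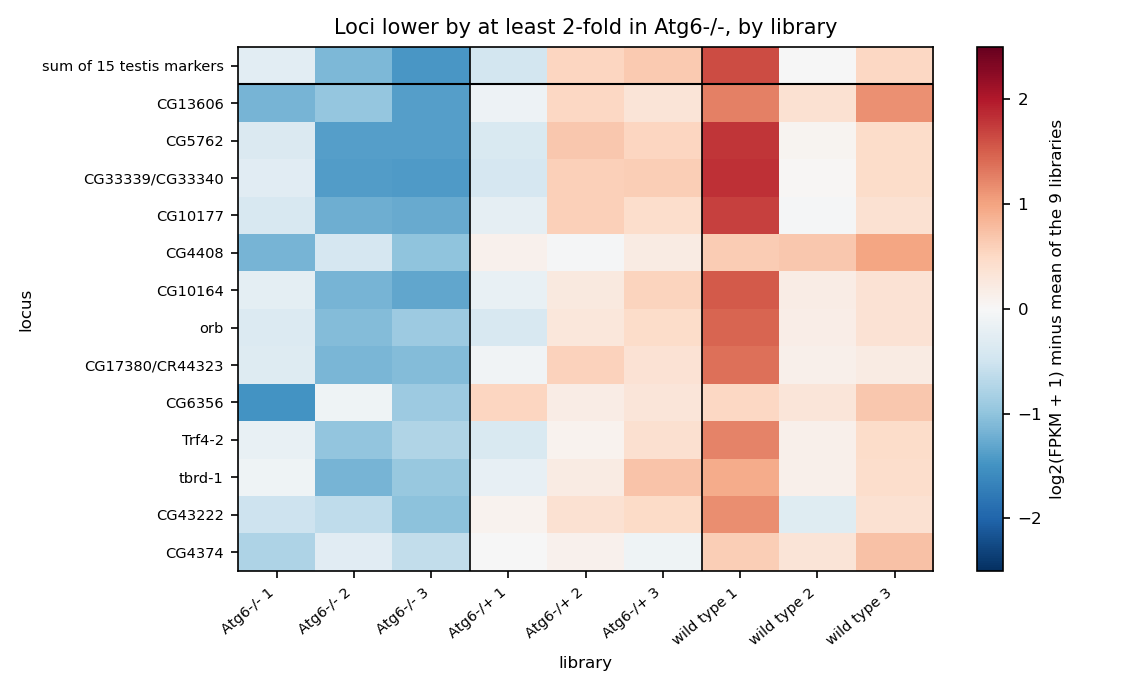
Log2(FPKM + 1) minus its mean over the 9 libraries (colour) in each library (columns, by genotype) for the 13 loci of the window that were lower in Atg6-/- than in wild type by at least 2-fold, with the summed FPKM of 15 testis markers on the same scale in the top row. Wild type 1 is high in the top row and at most loci, while at CG4408, CG6356 and CG4374 wild type 3 is the highest wild type.

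Well known genes of the window that did not pass in homozygotes against wild type include hh, the Hedgehog ligand, with means of 3.42, 4.57 and 4.52 FPKM in homozygotes, heterozygotes and wild types, and crb (Crumbs), which sets apical polarity, with 15.6, 13.6 and 14.0 FPKM. Rab7, the GTPase of late endosomes and of autophagosome fusion with lysosomes, had 222, 396 and 277 FPKM in homozygotes, 229.7, 247 and 233 FPKM in heterozygotes, and 200.1, 215 and 241 FPKM in wild types. Its genotypes overlapped, and the difference of 0.41 did not pass (limma adjusted p = 0.16; 0.0466 without homozygote 1). The proteasome subunits Rpn9, Rpt5 and Rpt2 averaged 134, 117.5 and 134 FPKM in homozygotes, 146, 125 and 156 FPKM in heterozygotes, and 188, 149.96 and 186 FPKM in wild types, and none of the 3 passed. Without homozygote 2 all 3 passed as lower in homozygotes, with limma adjusted p from 0.0137 to 0.0239.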

How the data were processed

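Whole-larva RNA of 3 genotypes was sequenced in 3 libraries each. The deposited table gives FPKM per gene name and library, made by the authors; per the submitters' processing notes HISAT2 2.1.0, Cufflinks 2.2.1, limma and build dm6 were used, and the annotation is not given in the sources used here. The table has 50244 lines, each of its 16748 gene names repeated 3 times with equal values; names sharing an identifier were joined to 15809 loci, 1 row each. Positions and strands came from Ensembl release 115 by symbol; 304 of the 307 loci had one. A deposited interval can span overlapping genes, and 160 of the loci share one with another. Distance was the gap between intervals, and the distance plot and the distances given for single genes use annotated genes. Loci with no annotated position, such as Rootletin, kept the gap of their deposited interval in the plot.

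Loci that reached an FPKM of 1 in 3 or more libraries were fitted on log2(FPKM + 1) with limma 3.58.1 in R 4.3.3 (lmFit, contrasts.fit, eBayes with trend), the 3 genotypes together, and p-values were adjusted over all 10887 of them (Benjamini-Hochberg). The pseudocount of 1 understates changes of low loci. The fit was tested on simulated data. Named loci are those within 20 kb of Atg6, those called in heterozygotes, the 10 largest changes per direction with no overlap of libraries, those in strict genotype order, the 5 most abundant, and well known genes; other loci were added after their values were seen. The loci, lists and tests were chosen with earlier results of these data known. Alternatives were other pseudocounts, filters, scalings and distances, 2 genotypes fitted, a replicate block, and leaving out each library. Some loci past the test are not reported here by name, and no sequence is shown.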

Additional observations from a re-analysis of the deposited data

How the results depend on the processing

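Against wild type, 55 loci of the window changed in homozygotes; the count was 39 to 59 under other pseudocounts, filters and scalings, 23 with only 2 genotypes fitted, 26 with a replicate block, and 23 to 70 when each library was left out. Without the filter 29 were higher and 11 lower, against 32 and 23. Over all tested loci the 1343 rises and 1053 falls became 1162 and 751 without the filter. They were 550 and 143 with 2 genotypes fitted and 750 and 216 with the replicate block. In heterozygotes the count of 3 was 1 with 2 genotypes fitted, 1 with the replicate block and 1 to 3 with a library left out. Over all tested loci the 16 rises and 7 falls in heterozygotes became 8 and 0 with 2 genotypes fitted. They were 8 and 1 with the replicate block. Homozygotes against heterozygotes gave 26, which was 14 with the replicate block and 10 to 29 with a library left out. Over all tested loci the 683 rises and 155 falls of this comparison became 371 and 66 with the replicate block. The 2 loci off the middle were 1 with a filter at 5 FPKM, 0 with the block and 0 to 3 with a library left out. Over all tested loci, 14 lay above and 95 below the middle. These were 15 and 95 with that filter and 2 and 13 with the block. The 10 loci of the window in genotype order were 10 to 21. Counts by distance stayed within 1.5 times with distances between midpoints, and with distances between annotated genes, a choice made after seeing the data. The cause of these changes was not tested, and the reduced fits also hold fewer samples. Deviations of same-numbered libraries of different genotypes from their genotype means correlated at -0.65 to 0.33, with a median of -0.16. For differently numbered libraries the range was -0.48 to 0.67, with a median of 0.13. With 3 libraries per genotype, these values cannot settle whether replicate numbers pair the libraries. Signs turned under quantile normalization at RpS3 in heterozygotes (-0.0071), CG33108/LSm3 (-0.0116) and SMC1 (-0.0457) in homozygotes, and for SMC1 also when homozygote 2 or 3 was left out; leaving out each library gave SMC1 values from -0.0387 to 0.167. CG10157 ran from -1.74 to 0.631 when each library was left out. None of these had passed the test, and the cause was not tested. Of 84 calls, over all loci of the window past the test in any comparison, 34 held without each library and 29 under every setting. Depth is unknown, so no counting error can be given for loci of low FPKM.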

Other observations

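CG6738, chosen after its values were seen, had 0.637, 0.361 and 1.96 FPKM in homozygotes, 0.979, 1.65 and 1.18 FPKM in heterozygotes, and 0.103, 0.0871 and 0.0269 FPKM in wild types. Both mutant genotypes lay above every wild type without an order between them, and neither difference passed (limma adjusted p = 0.0781 in homozygotes and 0.488 in heterozygotes). It lies 948 kb from Atg6. CG33337, also chosen after its values were seen and too low to be tested, had 5.02, 0.580 and 3.35 FPKM in homozygotes, 0.464, 0.597 and 0.286 FPKM in heterozygotes, and 0.177, 0.0750 and 0.108 FPKM in wild types. Every heterozygote was above every wild type there, while homozygote 2 was among the heterozygotes.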
